A study of Mus musculus with 16 samples.

Results

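The 6 libraries described here hold newly made RNA from mouse embryonic stem cells with a conditional knockout (CKO) of Mettl14, labelled with 5-ethynyl uridine (EU) for 10, 20 or 60 min, with 2 libraries at each time. They were chosen from the 16 libraries of the series by genotype and labelling time. The CKO pair at 30 min was left out because of its background: it detected 30583 and 31826 identifiers, more than any other library, from only 5188643 and 5109162 mouse counts. All cells were C57BL/6 stem cells kept in serum with LIF, the GSK3 inhibitor CHIR99021 and the MEK inhibitor PD0325901. EU was given at 0.5 mM from 48 h after seeding. Matching libraries of the Control genotype (6, at 10, 20 and 60 min) entered the same fit, where they share in the count filter and the estimate of spread behind each call, and are described only beside CKO values. The labels do not say how or when Mettl14 was deleted, nor whether the cells are 1 clone. Nothing in them ties the 2 libraries of a time to separate cultures. The p-values therefore measure the spread between libraries alone, and that spread may be technical.

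METTL14 binds METTL3, the catalytic subunit of the complex that writes N6-methyladenosine on messenger RNA. EU is a uridine analogue that RNA polymerases build into growing RNA, and an alkyne on its base lets labelled RNA be coupled to biotin and pulled out. After a short pulse the captured pool is made of RNA just transcribed, and with a longer pulse RNAs that last accumulate while those that decay quickly are replaced as they are made. A gene can therefore gain labelled RNA in absolute amount and still lose share of the captured pool. Both quantities are given below: share as mouse CPM, the count scaled to the library's mouse total, and amount as counts per count of ERCC spike-in RNA. Calls and fold changes of share come from fits with TMM scaling, which adjusts the mouse totals, unless library totals are named.

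The deposited counts name genes by Ensembl identifier alone. The gene table used here matched 0 of the 54446 mouse identifiers, so the genes are described in groups, by abundance, by direction and by the number in the identifier, and 4 of them are given one by one. The level of Mettl14 itself and the markers of embryonic stem cells and other cell types were not analysed here. The CKO libraries held 11902184 and 13144401 mouse counts at 10 min, 19092180 and 17858647 at 20 min, and 20263500 and 26557342 at 60 min. They detected 21173 and 21821 identifiers at 10 min and 26214 to 26407 at the later times. The 10 most abundant identifiers took 8.411% to 10.52% of the mouse counts, and the most abundant one alone 2.323% to 4.055%.

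Measured by counts, the make-up of the captured RNA moved with labelling time by more than the replicates differed. Expressed as the percent of counts that would have to change identifier to turn one library into another, the 2 libraries at 10 min differed by 7.386%, those at 20 min by 2.631% and those at 60 min by 6.592%. Libraries at 10 and 20 min differed by 13.28% to 14.14%, those at 20 and 60 min by 8.601% to 9.63%, and those at 10 and 60 min by 15.84% to 16.98%. The 20 min libraries were thus the most alike, and each distance between times exceeded the distance within both of the times it joins. This measure follows the abundant identifiers. The Pearson correlation of log2 CPM across identifiers, which weighs rare ones alike and in which genes are not independent replicates, was 0.9638 between the 10 min libraries, below the 0.9667 to 0.9688 between 10 and 20 min libraries. It was 0.9914 and 0.9908 between the replicates at 20 and 60 min, above the 0.9811 to 0.9861 between those times. Replicates differed by more than counting error at each time, with chi-square values, relative to their degrees of freedom, of 16.05 at 10 min, 4.08 at 20 min and 22.09 at 60 min.

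Captured RNA per spike-in rose with labelling time in the knockout cells. The mouse counts per ERCC count were 28.57 and 34.3 at 10 min, 60.28 and 59.34 at 20 min, and 127.6 and 154.6 at 60 min. The times did not overlap, and the spread was widest at 60 min. The least squares slope over the 6 libraries was 2.147 mouse counts per ERCC count per min (SE 0.1959; two-sided exact permutation of the labelling times, p = 0.01111, the smallest that the 90 assignments can give). The means were 31.43 ± 4.053 (SD, n = 2), 59.81 ± 0.6677 and 141.1 ± 19.07, so that the amount grew 1.903-fold from 10 to 20 min and 2.359-fold from 20 to 60 min, while the time grew 2-fold and 3-fold. In Control cells the same steps were 3.81-fold and 2.905-fold. Divided by the minutes of each interval, CKO cells gained 2.837 mouse counts per ERCC count per min from 10 to 20 min and 2.032 from 20 to 60 min. Up to 10 min the value was 3.143 if nothing was captured before labelling, which no library used here measured.

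**Figure D1:**
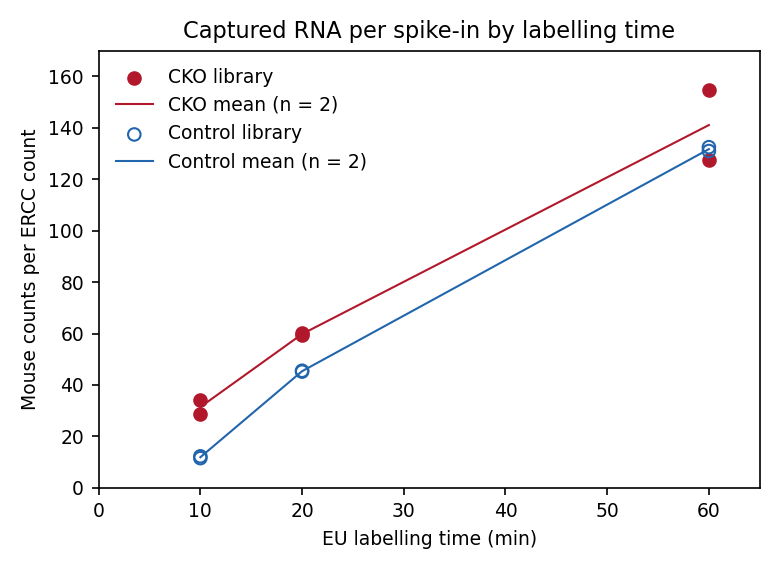
Mouse counts per ERCC count (vertical axis) against EU labelling time in min (horizontal axis) for the 6 CKO libraries (filled) and the 6 Control libraries (open), with lines through the means of 2 libraries. The CKO libraries lie at 28.57 and 34.3 after 10 min and at 127.6 and 154.6 after 60 min, and above Control at 10 and 20 min.

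The size of the growth depended on the spike-in species it was read from. Each library received 0.01 µl of the same ERCC mixture after capture, so the amounts also vary with how many cells were used and how much RNA was recovered and captured. With each of the 20 most abundant ERCC species taken alone as the reference, the growth from 10 to 20 min ranged from 1.313-fold to 5.324-fold, with a median of 1.783-fold. From 20 to 60 min the range was narrower, 2.076-fold to 3.22-fold with a median of 2.507-fold. Growth of the captured RNA was thus seen with all 20 of these species in both steps, but its size in the first step is known only within this range.

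From 10 to 20 min of labelling, many genes changed their share of the captured RNA in both directions. Of 20204 identifiers tested, which held 99.9% of the CKO mouse counts, 1827 gained share (9.04%) and 1422 lost it (7.04%), 16.1% in all (edgeR quasi-likelihood F-test with TMM scaling, Benjamini-Hochberg adjusted p under 0.05). At least 2-fold changes numbered 432 gains and 280 losses. With library totals in place of TMM, 1962 gained and 1297 lost share. The median log2 fold change over all tested identifiers was 0.04. Calls were most frequent among abundant genes: with the identifiers ranked by mean CPM over the 6 libraries and divided into 5 classes of equal size, 42.6% of the 4041 in the top class (53.02 CPM and above) were called, 964 as gains and 759 as losses. In the lowest class (up to 0.8475 CPM) 109 gained and 6 lost share, in the step in which the number of detected identifiers also rose, as given above. The part of the lower depth and detection at 10 min in this class was not tested. A fit of the CKO libraries alone called 1831. Without either CKO 20 min library, with the remaining one taken to vary like the other groups, 1413 were called in this step.

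From 20 to 60 min fewer genes changed share, and gains and losses were spread differently over the classes of abundance. In all 786 identifiers gained share (3.89%) and 611 lost it (3.02%), 6.91% of those tested (edgeR, adjusted as above). The gains were small and the losses large: 32 gains and 344 losses were at least 2-fold. In the most abundant class 593 identifiers gained and 160 lost share. In the middle class, from 3.29 to 15.32 CPM, the balance was turned, with 29 gains and 264 losses. This did not hold for all identifiers of middling abundance. From 3.29 to 53 CPM, those with an Ensembl number below 50000 had 136 gains and 57 losses. Those numbered 100000 or above, described below, had 2 gains and 285 losses there. With library totals in place of TMM, which reads the share of mouse counts directly, 494 gained and 748 lost, so that 39.77% of the calls were gains against 56.26% with TMM. A fit of the CKO libraries alone called 454 in this step. Leaving out a CKO 20 min library, the first or the second, gave 451 or 417 calls. Without the first CKO 60 min library there were 913, and without a CKO 10 min library 2133 or 2261.

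**Figure D2:**
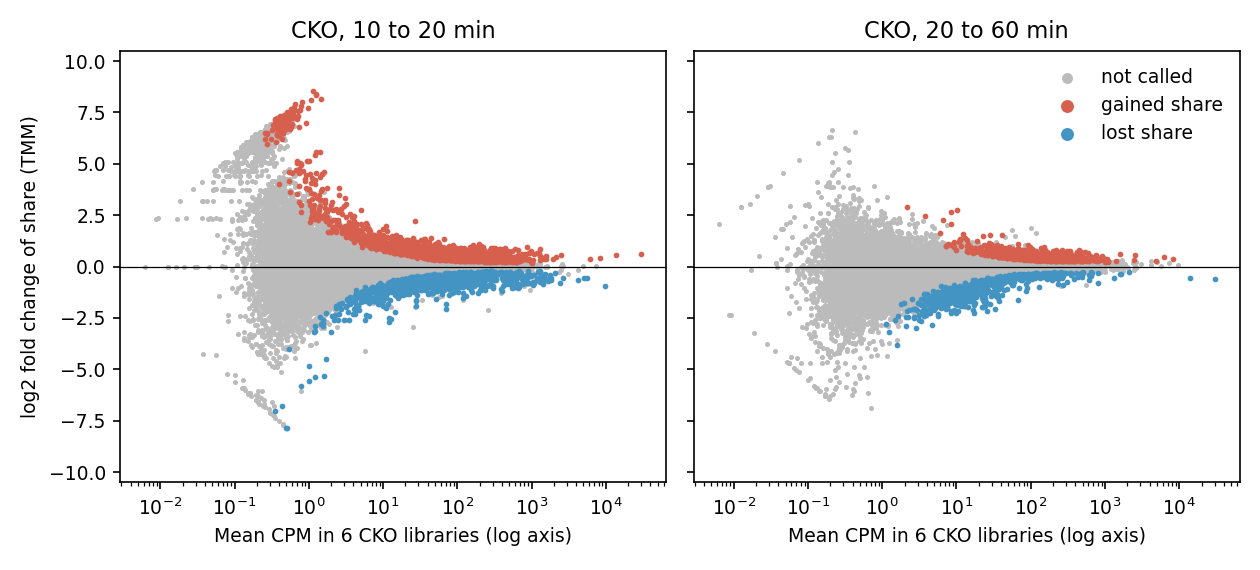
log2 fold change of share under TMM scaling (vertical axis) against mean CPM in the 6 CKO libraries (horizontal, log axis) for each identifier with a count in them, from 10 to 20 min on the left and from 20 to 60 min on the right. Called gains (1827 and 786) lie above 0 and called losses (1422 and 611) below it; on the right, the called losses lie mostly at lower CPM than the gains. The largest fitted changes, at low CPM, are nearly all of identifiers without a count at one time, and their size depends on edgeR's prior count.

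The losses from 20 to 60 min were concentrated in identifiers with high numbers. Ensembl numbers its mouse genes as they are added to the annotation, so a high number marks a later addition. The files do not say what kind of genes these are. The grouping was chosen after the losses had been seen, so it is described with no test. Of the 20204 identifiers tested, 2840 (14.06%) were numbered 100000 or above, and 96.8% of these were still in their first version. They made up 311 of the 611 losses (50.9%) and 275 of the 344 losses of at least 2-fold (79.94%), but 4 of the 786 gains.

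Called or not, the late-numbered identifiers that passed the filter on low counts had, as a body, a lower share at 60 min. Their median log2 fold change from 20 to 60 min was −0.76, against −0.01 for all tested identifiers, while from 10 to 20 min it was −0.03 against 0.04. Together they took 1.523% and 1.412% of the mouse counts at 10 min, 1.364% and 1.384% at 20 min, and 0.8566% and 0.9087% at 60 min. The 60 min libraries lay below all 4 earlier ones, and the 10 and 20 min libraries lay close together. Among identifiers of the same middle abundance (3.29 to 53 CPM), 285 of 700 late-numbered ones lost share from 20 to 60 min (40.7%) with a median log2 fold change of −1.02. Of the 5563 there that were numbered below 50000, 57 lost share (1.02%), with a median of 0.04. From 10 to 20 min, 73 of the 700 lost share (10.4%) and 28 gained it (4%), with a median of −0.14. Of the 5563, 409 lost share in that step (7.35%) and 411 gained it (7.39%), with a median of 0.01.

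These identifiers also had a lower share at 60 min in Control cells. Their median log2 fold change from 20 to 60 min there was −0.72, and their share of the Control mouse counts was 1.439% and 1.45% at 20 min and 1.036% and 1.019% at 60 min. The 311 calls in CKO cells, of 611 losses in all, became 145 of 210 with the CKO libraries fitted alone. With single CKO libraries left out, they were fewer without a 20 or 60 min library. They were more without a library of the shortest labelling time. The median log2 fold change of the late-numbered identifiers from 20 to 60 min then lay between −0.83 and −0.58. The median of the late-numbered identifiers stayed below that of all identifiers tested in each of the 15 other settings tried, with a difference of −0.99 to −0.08. A change of scaling shifts all identifiers of a step nearly alike, so it could hardly move this difference. The other settings reuse the same CKO libraries. The difference was −0.74 in the main fit. It was smallest, −0.08, with no filter on low counts, over 9013 late-numbered identifiers. With all 16 libraries, over 5389 of them, it was −0.29. An identifier can pass the filter through the times at which it is high, and the part of this in the lower share was not tested.

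**Figure D3:**
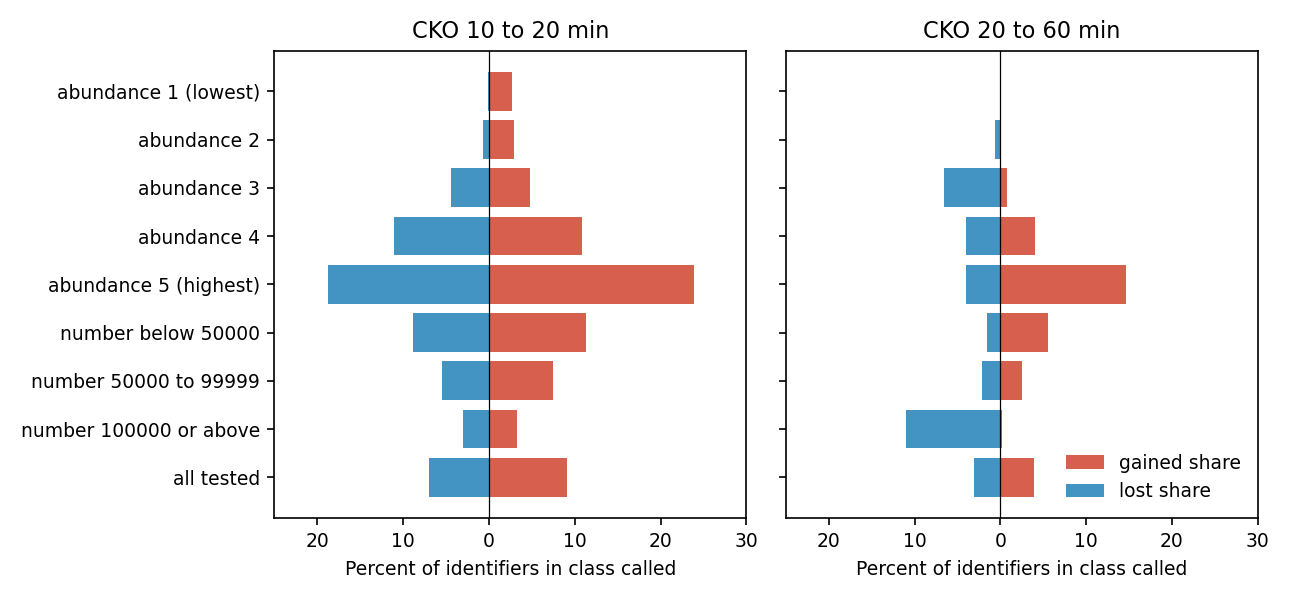
Percent of the identifiers in each class that gained (right of 0) or lost (left of 0) share in CKO cells, from 10 to 20 min and from 20 to 60 min, for 5 classes of mean CPM, 3 classes of identifier number and all identifiers tested. From 20 to 60 min, 11% of the identifiers numbered 100000 or above lost share and 0.141% gained it, against 3.02% and 3.89% of all tested.

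Over the whole course, from 10 to 60 min, 2971 identifiers gained share (14.7%) and 2429 lost it (12%), 26.7% of those tested (edgeR, adjusted as above), with 980 gains and 929 losses of at least 2-fold. The 10 to 60 min count lay between 3790 and 5693 when each CKO library was left out in turn. With library totals in place of TMM, 2731 gained and 2641 lost share from 10 to 60 min. The 10 to 60 min comparison shares its libraries with the shorter steps, so the following values are given side by side and not as separate evidence. The 2971 that gained had a median log2 fold change of 0.77 over the course, 0.47 in the first step and 0.29 in the second. The 2429 that lost had −0.83 over the course, −0.54 in the first step and −0.25 in the second.

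Whether the steps differ within the course depended on the libraries fitted. With the CKO libraries alone, the test of the second step against the first called 0 identifiers (edgeR, 2676 at an unadjusted p under 0.05), and DESeq2 on the 12 libraries called 1260. With edgeR on the 12 libraries it called 558 (2.76%), 285 with the higher log2 change in the second step (1.41%) and 273 with the lower (1.35%; edgeR, adjusted as above). With library totals the split was 183 and 443. Of the 285, 222 had a negative fitted change followed by a positive one, with medians over the 285 of −0.77 and 0.17. Of the 273, 225 had a positive change followed by a negative one, with medians over the 273 of 0.56 and −0.45. These signs and medians come from the values that made the calls and are not separate evidence. The 20 min libraries enter both steps, with opposite sign. Without either of them 3 identifiers were called, and with a 10 min library left out 1483 or 1175, while 1043 were called without the second 60 min library.

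In absolute amount, most genes had more labelled RNA the longer the label was given. Over the 9236 identifiers with a mean of at least 10 CPM, the amount per spike-in grew by a median of 1.976-fold from 10 to 20 min (quartiles 1.601 and 2.398) and 2.342-fold from 20 to 60 min (quartiles 2.07 and 2.674). Genes share the ERCC totals of their libraries and are not independent replicates. In the first step 48.26% of the identifiers grew by more than the 2-fold increase in time, and in the second 11.26% by more than the 3-fold increase. From 10 to 60 min 24.22% grew more than the 6-fold increase in time, and 48 identifiers (0.5197%) had less per spike-in at 60 than at 10 min. These percentages, and the ratios that follow, take the ERCC total as reference. With median-of-ratios factors of the ERCC species, the median log2 growth from 10 to 20 min was 0.87. Without the 5 most abundant species it was 1.19, so the median lay below or above 2-fold depending on the reference. With single species, the output grew 3.444-fold to 11.36-fold from 10 to 60 min. Taking the amount before labelling as 0, which no library used here measured, the gain per min from 20 to 60 min was below that up to 10 min for 80.9% of the identifiers. The median ratio was 0.6417 (quartiles 0.4522 and 0.8995). For the gain from 10 to 20 min these values were 51.74% and 0.9762. A background present before labelling would lower both ratios.

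**Figure D4:**
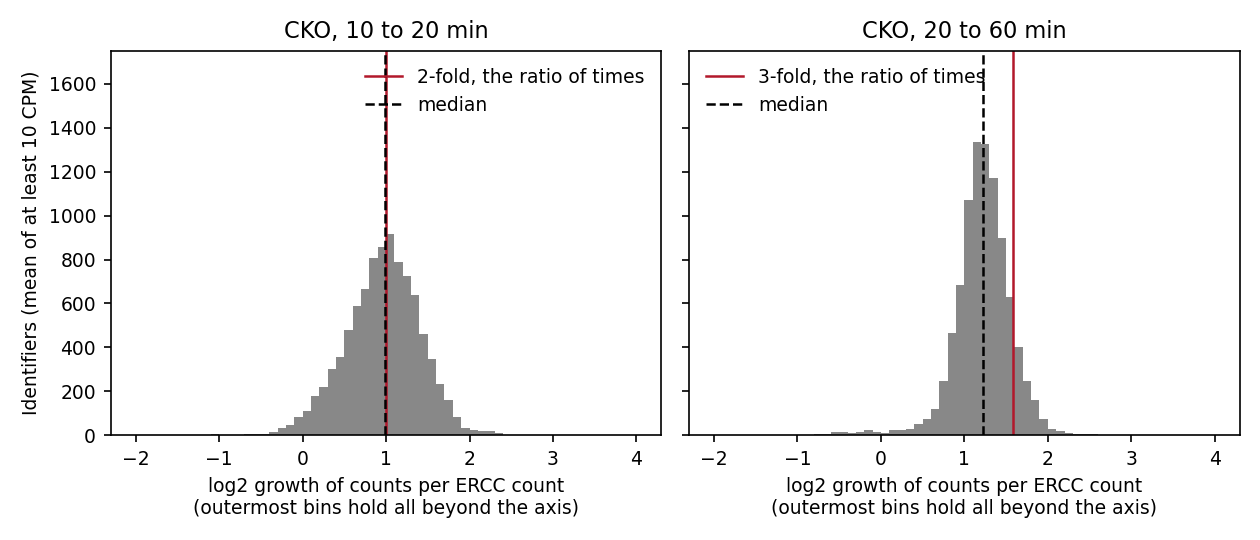
Number of identifiers (vertical axis, 9236 with a mean of at least 10 CPM) by log2 growth of their counts per ERCC count in CKO cells, from 10 to 20 min and from 20 to 60 min. The dashed line is the median (1.976-fold and 2.342-fold) and the solid line the ratio of the labelling times (2-fold and 3-fold). With the ERCC total as reference, the median lies near the solid line in the first step and left of it in the second.

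The quartiles of growth lay closer together in the second step, though its extremes did not on the upper side, which reached 9.178-fold in the first step and 14.29-fold in the second. Of the 9236, 214 had a lower mean per spike-in at 20 than at 10 min (2.317%), and 109 a lower one at 60 than at 20 min (1.18%). Of these 109, 97 were numbered 100000 or above. The 248 late-numbered identifiers of this abundance grew by a median of 1.762-fold from 10 to 20 min and 1.181-fold from 20 to 60 min, against 1.983-fold and 2.353-fold for the 7334 numbered below 50000. With ERCC scaling in the edgeR fit, 10793 of 20204 identifiers rose (53.4%) and 33 fell (0.163%) from 10 to 20 min, and 11358 rose (56.2%) and 26 fell (0.129%) from 20 to 60 min. From 10 to 60 min 15091 rose (74.7%) and 25 fell (0.124%). Of the late-numbered ones 257 rose and 22 fell in the second step, so they make up 22 of those 26 falls.

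Among the 4232 identifiers with a mean of at least 50 CPM, the range of accumulation was wide. From 10 to 60 min 84 grew more than 10-fold and 47 less than 2-fold. The second highest growth was 16.43-fold, in an identifier with 0.9529 and 1.696 counts per 1000 ERCC counts at 10 min, 4.714 and 4.568 at 20 min, and 19.46 and 24.08 at 60 min. Its times did not overlap. The highest, 17.84-fold, rested on libraries that disagree, with 40.64 and 12.75 at 60 min. The fifth lowest growth, 1.345-fold, was in an abundant identifier with 15.8 and 15.45 counts per 1000 ERCC counts at 10 min, 14.78 and 16.55 at 20 min, and 16.49 and 25.55 at 60 min. The lowest, 0.5698-fold, came with 1.524 and 18.82 at 60 min, which lie on either side of the earlier values. The next lowest, 0.8262-fold, had 4.448 and 4.903 at 10 min, 2.194 and 2.116 at 20 min, and 3.337 and 4.388 at 60 min. The times of this identifier did not overlap, though 4.388 lay just under 4.448. The identifiers at 1.203-fold and 1.34-fold had both 20 min libraries below those at 10 min, and rose again by 60 min.

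Each step is illustrated by a pair of identifiers, those with the largest gain and the largest loss of share in each step among called identifiers with an average log2 CPM of at least 3 and no overlap between the replicates of the times compared. Separation and a low p in that step were thus conditions of the choice. The largest gain from 10 to 20 min, among 1514 eligible, was in ENSMUSG00000061991.2. It stood at 6.721 and 5.858 CPM at 10 min, 34.25 and 25.98 CPM at 20 min, and 41.45 and 49.4 CPM at 60 min. The 60 min libraries also lay above those at 20 min, without overlap. Its log2 fold change was 2.24 in the first step (SE 0.22, edgeR adjusted p = 6.35e-06) and 0.66 in the second (SE 0.19, edgeR adjusted p = 0.0437). In Control cells it held 19.37 and 30.98 CPM at 10 min and 87.65 and 98.59 CPM at 60 min, above the CKO libraries of those times. Per 1000 ERCC counts it went from 0.192 and 0.2009 at 10 min to 5.289 and 7.636 at 60 min in CKO cells.

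The largest loss from 10 to 20 min, among 1290 eligible, was in ENSMUSG00000101939.1, which is also late-numbered. It had 24.62 and 19.78 CPM at 10 min, 2.881 and 4.984 CPM at 20 min, and 17.27 and 3.201 CPM at 60 min. The 60 min libraries disagreed: the first was near the 10 min level and the second within the 20 min range. The log2 fold change from 10 to 20 min was −2.52 (SE 0.54, edgeR adjusted p = 0.00369), and −2.18 without the first CKO 20 min library, with an edgeR adjusted p of 0.065. The counts behind it were 293 and 260 at 10 min and 55 and 89 at 20 min. Its log2 fold change from 20 to 60 min was 1.44 and was not called (SE 0.53, edgeR adjusted p = 0.129). Control libraries held 4.43 and 5.309 CPM at 10 min and 4.716 and 4.163 CPM at 20 min. The change from 10 to 20 min was not called as different between the genotypes (edgeR interaction test, adjusted p = 0.0814).

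The largest gain from 20 to 60 min, among 777 eligible, was in ENSMUSG00000062382.9, with 8.852 and 5.432 CPM at 20 min and 11.3 and 29.82 CPM at 60 min. The second 60 min library alone was far above the rest. At 10 min it stood at 9.494 and 8.445 CPM, inside or close to the 20 min range. Its log2 fold change of 1.59 (SE 0.38, edgeR adjusted p = 0.0154) became 0.72 without the second CKO 60 min library, with an edgeR adjusted p of 0.474, and 1.30 without the second CKO 20 min library, with an edgeR adjusted p of 0.234. Control libraries held 5.482 to 7.594 CPM at all 3 times.

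The largest loss from 20 to 60 min, among 464 eligible, was in ENSMUSG00000108812.1, one of the late-numbered identifiers. It held 29.41 and 27.01 CPM at 10 min, 20.22 and 19.43 CPM at 20 min, and 3.257 and 4.556 CPM at 60 min. The 20 min libraries also lay below those at 10 min, without overlap. Its log2 fold change was −2.27 from 20 to 60 min (SE 0.22, edgeR adjusted p = 1.54e-05) and −0.53 from 10 to 20 min (SE 0.20, edgeR adjusted p = 0.0813). Control libraries went from 13.06 and 14.22 CPM at 20 min to 4.597 and 4.631 CPM at 60 min. Its amount per 1000 ERCC counts in CKO cells was 0.8401 and 0.9264 at 10 min, 1.219 and 1.153 at 20 min, and 0.4156 and 0.7042 at 60 min, with both 60 min libraries below those at 10 and 20 min.

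**Figure D5:**
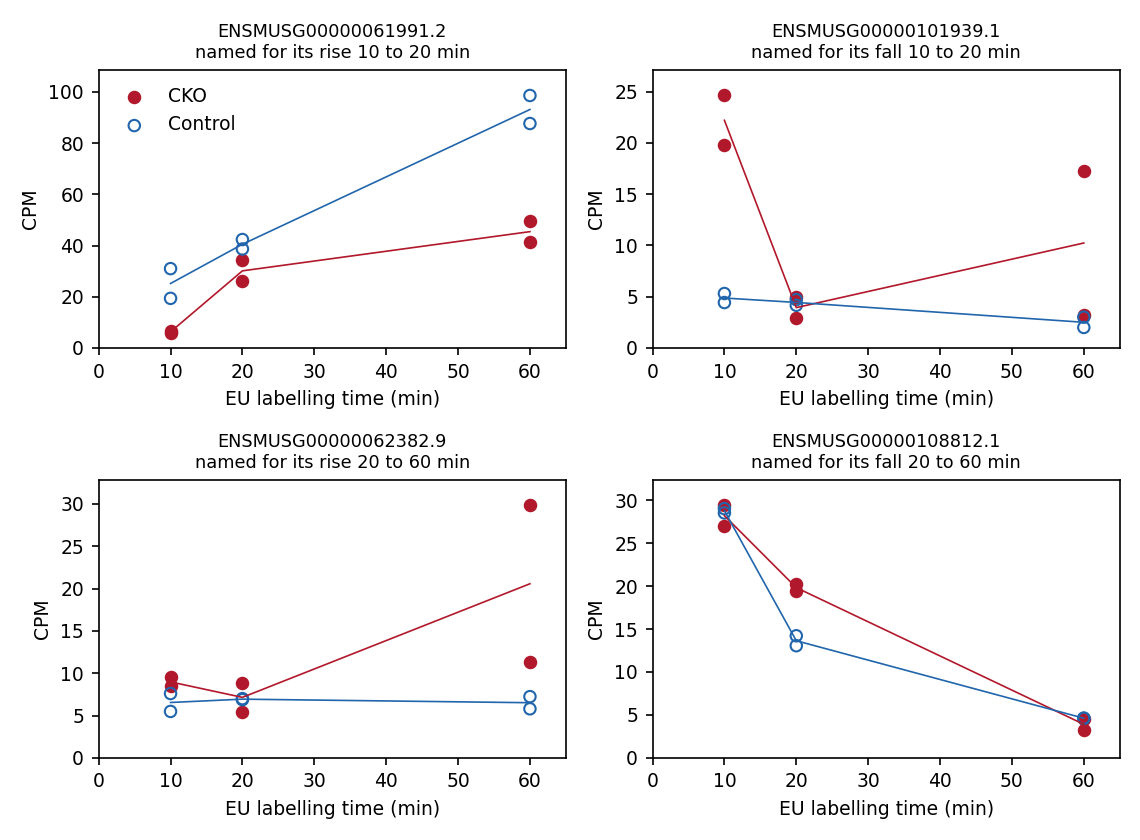
CPM (vertical axis) against EU labelling time in min (horizontal axis) in each CKO library (filled) and Control library (open), with lines through the means of 2 libraries, for the 4 identifiers with the largest gain or loss of share in a step. ENSMUSG00000061991.2 rises from 6.721 and 5.858 CPM and ENSMUSG00000108812.1 falls from 29.41 and 27.01 CPM with replicates close together, while the other identifiers have 60 min CKO libraries far apart.

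Set against Control, the knockout course differed for more identifiers in its first step than in its second. The change from 10 to 20 min differed between the genotypes for 863 identifiers (4.27%), higher in CKO for 460 (2.28%) and lower for 403 (1.99%; edgeR interaction test, adjusted as above), and with library totals for 592 and 342. The 460 had a median log2 fold change of 0.61 in CKO and −0.13 in Control. The 403 had −0.78 in CKO and 0.03 in Control. For the change from 20 to 60 min the test called 63 (0.312%), 61 higher (0.302%) and 2 lower (0.0099%), a count that single libraries moved between 4 and 569. The split was not stable either: DESeq2 called 153 higher and 83 lower, and edgeR without the second CKO 60 min library 323 and 246. The count of 863 moved with single libraries. Leaving out a CKO 20 min library, the first or the second, gave 182 or 137. For the Control 20 min libraries, in the same order, the counts were 188 and 145, for the Control 60 min libraries 523 and 512, and for the CKO 10 min libraries 1783 and 1553.

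Calls in CKO can be set beside the change of the same identifiers in Control. The identifiers were chosen by their change in CKO, which by itself moves the CKO medians away from 0. The gap between the medians therefore does not measure a difference between genotypes. The 786 identifiers that gained share in CKO had a median log2 fold change of 0.50 in CKO and 0.39 in Control, and 402 of them were also called as gains in Control, which had 986 gains in all. Of the 611 losses, with medians of −1.16 in CKO and −0.82 in Control, 335 were also called as losses there, out of 694. In the first step the 1827 gains had medians of 0.62 in CKO and 0.15 in Control, and 205 of them were called as gains there, out of 361. The 1422 losses had −0.67 and −0.11, and 39 were called as losses in Control, out of 127. In absolute amount, the slope of log2 output on log2 minutes over 10, 20 and 60 min was 0.83 in CKO and 1.31 in Control. The slopes thus differed by −0.48, which missed the threshold (two-sided exact permutation of genotype within labelling time, 216 assignments, p = 0.1759; smallest possible p = 0.009259).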

How the data were processed

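The tools named in the submitters' processing notes are HISAT2 2.1.0, HTSeq, Trimmomatic 0.38 and CASAVA, and the build is mm10. The deposited values are raw read counts per Ensembl identifier, 1 table per library, with 92 ERCC species. The sources used here do not give annotation, strand setting or counted feature, which makes counts of antisense, overlapping and near-identical genes uncertain.

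Mouse counts of the 12 libraries at 10, 20 and 60 min were fitted with 6 group means in edgeR 4.0.16 (R 4.3.3; TMM, filter on low counts by group, robust quasi-likelihood F-tests, Benjamini-Hochberg over 20204 identifiers, threshold 0.05). The SE of a fold change was derived from its F statistic. Amounts are counts divided by a library's ERCC total. Identifiers were named by a reduced rule, since its part on symbols could not be applied, and the symbol-based gene lists were not used. On simulated counts, 45% and 49.5% of 200 genes changed 2-fold were recovered for the first and second step. Of the calls made there, 2.17% and 9.17% were of unchanged genes. The simulation gave a gene the same dispersion in all groups, while the real replicates differed in spread between times.

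The members and groups were chosen with earlier results of these data known. Other settings were DESeq2 1.42.0, other scalings and filters, a replicate block, other library sets and each library left out. Mettl14, cell type markers and sequences were not analysed here.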

Additional observations from a re-analysis of the deposited data

Results flagged for a closer look

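A difference between the genotypes set this result apart. The change of share between labelling times differed between CKO and Control cells by the interaction test of edgeR (Benjamini-Hochberg): 863 identifiers for the step from 10 to 20 min and 63 for the step from 20 to 60 min, of 20204 tested. Both counts moved widely when single libraries were left out, as given above, so neither is a stable number. The labels do not tie libraries to cultures, so a difference between genotypes and one between cultures cannot be told apart.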

How the results depend on the processing

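The losses of late-numbered identifiers and the slope of log2 output were examined after the data had been seen. The 10 to 60 min count kept within 1.5 times of 5400 under every setting but ERCC scaling, which asks for amount and not share (15116 calls, against 10826 and 11384 for the first and second step). The replicate number as a block gave 3038, 1282 and 5158 calls for 10 to 20, 20 to 60 and 10 to 60 min, and kept each of the 4 named identifiers called in the step it was named for. The replicate differences of the 6 groups correlated between −0.025 and 0.0066 over 15 pairs of groups. No shift shared by libraries of the same replicate number was seen. This cannot exclude that such libraries were prepared together. Fitting the CKO libraries alone gave 1831 and 454 calls for the 2 steps, 145 late-numbered losses, and 0 calls for the difference between steps (edgeR, 2676 at an unadjusted p under 0.05), for which DESeq2 gave 1260 with 12 libraries. All 16 libraries gave 927 calls for 20 to 60 min, 343 for the difference between steps, 489 for the first interaction and 175 late-numbered losses. DESeq2 gave 1487 and 236 for the interactions. The second interaction gave 37 with DESeq2 size factors, 41 with library totals and 223 with no filter, and no filter gave 1007 for the difference between steps. A mean of at least 10 CPM left 156 late-numbered losses among 248 late-numbered identifiers tested, against 311 among 2840 in the main fit. All losses from 20 to 60 min numbered 609 with that filter. ERCC scaling left 22 late-numbered losses of 26 in all. The late-numbered losses above were of 210 with the CKO libraries alone and of 324 with all 16 libraries.

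Leaving out 1 library at a time gave 1413 to 3616 calls for 10 to 20 min, 417 to 2261 for 20 to 60 min, 3790 to 5693 for 10 to 60 min, 3 to 1483 for the difference between steps, 137 to 1783 and 4 to 569 for the interactions, and 136 to 439 late-numbered losses. The second interaction is 4 without the first Control 60 min or either CKO 20 min library, 5 or 6 without a Control 20 min library, 17 without the second Control 60 min library, 19 without the first CKO 60 min library, 32 without either Control 10 min library, 120 or 124 without a CKO 10 min library and 569 without the second CKO 60 min library. The cause was not tested. Without the 5 most abundant ERCC species the output grew 2.189-fold from 10 to 20 min and the median gene by 1.19 on the log2 scale, against 0.98. The output slope was 1.881 to 2.445 when each library was left out. Output grew 1.744-fold to 2.094-fold and 2.133-fold to 2.584-fold in the 2 steps, and the median gene by 0.87 to 1.11 and 1.08 to 1.35 (log2). ENSMUSG00000062382.9 also missed the threshold with the CKO libraries alone (log2 fold change 1.62, edgeR adjusted p = 0.0911).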
